A study of Mus musculus with 55 samples.

Results

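Described here are 7 genes that stood higher in mouse hearts lacking the nuclear receptor PPARα than in wild-type hearts: Lad1, Casq1, Ndrg4, Tmprss13, Pigo, Prkcq and Armcx4. The array had probe sets that named a single gene for 18193 genes, of which these are 7, and 10 of those 34945 probe sets named one of them: 3 for Pigo, 2 for Ndrg4 and 1 for each of the others. They were chosen by their log2 signals, from among the genes with large rises in PPARα-null control hearts against wild-type control hearts. The values of those control hearts are therefore given as a description with no test, and the tests below compare only the means of the other hearts. The control hearts still entered the signal filter and the estimate of spread behind those tests. The measurement is the log2 signal of 55 Affymetrix mouse genome arrays, 1 array for each whole heart, and a difference of 1 on this scale is a doubling of signal.

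All mice were male and of the Sv129 strain. The PPARα-null mice (KO, 30 hearts) were of the substrain 129S4/SvJae and carried the disrupted receptor gene throughout the body, and the wild-type mice (WT, 25 hearts) were 129S1/SvImJ, so genotype and substrain cannot be told apart in any difference between KO and WT hearts. Every mouse ate a modified AIN76A diet with olive oil for 2 weeks, fasted for 4 h, received 1 gavage of 400 µL and was killed 6 h later. The age is labelled both 9 to 12 weeks and 2 to 6 months. The gavage held 0.5% carboxymethyl cellulose alone (control, which another label field calls none), 1 of 4 synthetic triglycerides, or the synthetic PPARα agonist Wy14643 at 10 mg/mL in the same cellulose. The triglycerides were triolein, trilinolein and trilinolenin, whose fatty acids have 18 carbons with 1, 2 and 3 double bonds, and tridocosahexaenoin, with 22 carbons and 6 double bonds. KO groups held 5 hearts each, and WT groups held 3 hearts after control, 4 after triolein, 5 after trilinolein, 4 after trilinolenin, 5 after tridocosahexaenoin and 4 after Wy14643. Each array stands for a separate heart, so p-values measure the spread between hearts.

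PPARα is a transcription factor that fatty acids and fibrate-like drugs activate. Together with its partner RXR it binds direct repeats in the promoters of genes for fat uptake and oxidation and switches them on, which makes it a main regulator of fuel use in the heart. The 7 genes belong to separate processes: calcium storage in muscle, anchoring of cells to the basement membrane, cell surface proteolysis, assembly of lipid anchors for surface proteins, protein kinase signalling, and families whose functions are less well known.

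The genotype labels were checked on Ppara, the targeted gene. Its 3 probe sets were lower in KO than in WT hearts after the 5 gavages other than control, with log2 differences of -0.78 ± 0.05, -1.22 ± 0.09 and -0.81 ± 0.06 (SE, limma adjusted p at most 6.73e-15). On these probe sets 17, 24 and 10 of the 25 KO hearts lay below every one of the 22 WT hearts. Where these probe sets lie relative to the targeted exons was not analysed here, and signal that remained in KO hearts does not show an intact transcript. The tissue label was checked on 10 cardiomyocyte markers, all of them bright, whose summed linear signal was 132556 to 140364 in KO and 129709 to 138804 in WT hearts after the 5 gavages. Array medians lay between 2.55 and 2.61 on the log2 scale. The tests covered the 13429 probe sets with a linear signal above 20 (4.32 on the log2 scale) in 3 or more arrays.

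All 10 probe sets of the 7 genes passed this filter. Tmprss13 exceeded the minimum in 18 of 55 arrays and Prkcq in 13, and every one of those arrays was from a KO heart. Both genes therefore passed only through the genotype in which they are high, so their adjusted p-values below come, unless stated otherwise, from a fit of all 34945 probe sets without the filter. The other 8 probe sets exceeded the minimum in 28 to 55 arrays.

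The promoter windows of 3 genes are printed, 2 because they hold matches to the motifs searched and 1 because its gene had the widest genotype difference of the 7. They are the 250 bases before a RefSeq gene start in build GRCm38.p6, read 5′ to 3′ on the strand of the gene, with motif matches in capitals. Lad1 is shown for that difference at chr1:135818348-135818597 on the plus strand, Casq1 at chr1:172219896-172220145 on the minus strand, and 1 of 4 start sites of Ndrg4 at chr8:95677513-95677762 on the plus strand.
Lad1: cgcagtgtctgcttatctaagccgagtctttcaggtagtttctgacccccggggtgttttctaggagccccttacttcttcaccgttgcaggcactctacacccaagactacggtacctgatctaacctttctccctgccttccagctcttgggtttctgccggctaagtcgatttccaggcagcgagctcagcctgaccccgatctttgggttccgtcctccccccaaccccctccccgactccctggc
Casq1: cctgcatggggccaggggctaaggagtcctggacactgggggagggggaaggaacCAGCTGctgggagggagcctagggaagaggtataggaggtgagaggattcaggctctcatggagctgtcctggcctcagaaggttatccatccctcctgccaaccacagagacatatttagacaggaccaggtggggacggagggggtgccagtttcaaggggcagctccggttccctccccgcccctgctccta
Ndrg4: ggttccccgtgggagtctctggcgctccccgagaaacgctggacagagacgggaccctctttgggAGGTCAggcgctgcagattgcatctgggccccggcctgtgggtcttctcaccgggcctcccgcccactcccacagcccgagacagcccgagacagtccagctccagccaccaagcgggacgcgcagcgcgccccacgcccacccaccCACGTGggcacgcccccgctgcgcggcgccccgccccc
Of the 7 genes 6 had promoter entries, with 10 windows in all. AGGTCA, the core recognised by nuclear receptors, searched on both strands like the other motifs, stood in 1 of the 10 windows (Ndrg4, above) and in 14% of 32851 mouse promoter windows of the same length. The element bound by PPARα and RXR in its strictest form, which repeats that core with 1 base between (AGGTCANAGGTCA) and so overlaps the search for the core, stood in 0 of the 10 and in 0.0335% of all windows. CAGCTG, an E-box of muscle transcription factors, stood in Casq1 alone of the 10 and in 13% of all. CACGTG, another E-box, stood in the printed Ndrg4 window and in 6.02% of all. TATAAA stood in another Ndrg4 window and in 12.4% of all. A match is a run of letters, and its absence says only that these letters are not in the window.

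In the control hearts, which chose the genes, Lad1 differed most of the 7. Its log2 signal was 6.08, 6.65, 6.28, 7.01 and 7.17 in KO hearts, against 4.36, 4.75 and 4.34 in WT hearts, a difference of 2.15 ± 0.27 (SE). Differences between the same hearts were 1.74 ± 0.26 for Casq1, 1.49 ± 0.30 for Tmprss13, 1.33 ± 0.29 for Prkcq and 1.20 ± 0.24 for Armcx4. The Ndrg4 probe sets differed by 1.70 ± 0.15 and 1.63 ± 0.13. Of the Pigo probe sets 1 differed by 1.43 ± 0.15, while the others differed by 0.23 ± 0.17 and -0.33 ± 0.16. In all, 1.29% of tested probe sets were called higher in KO control hearts, and nothing is read from that share here because the same hearts chose the genes. When each gene was taken by its brightest probe set, Armcx4 stood eighth in that order. Ahnak2 (1.18 ± 0.28) and Abat (1.13 ± 0.30) followed just outside, and Acsl6 (1.38 ± 0.16) stood between Pigo and Prkcq without being among the 7. That order leaves out probe sets that are not the brightest of their gene, of which 5 differed more than Armcx4: 2 of Mtm1 (3.03 ± 0.23 and 2.75 ± 0.24), 1 of Clta (2.65 ± 0.19), 1 of Creb3 (1.46 ± 0.21) and 1 of Clba1 (1.44 ± 0.30).

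**Figure D1:**
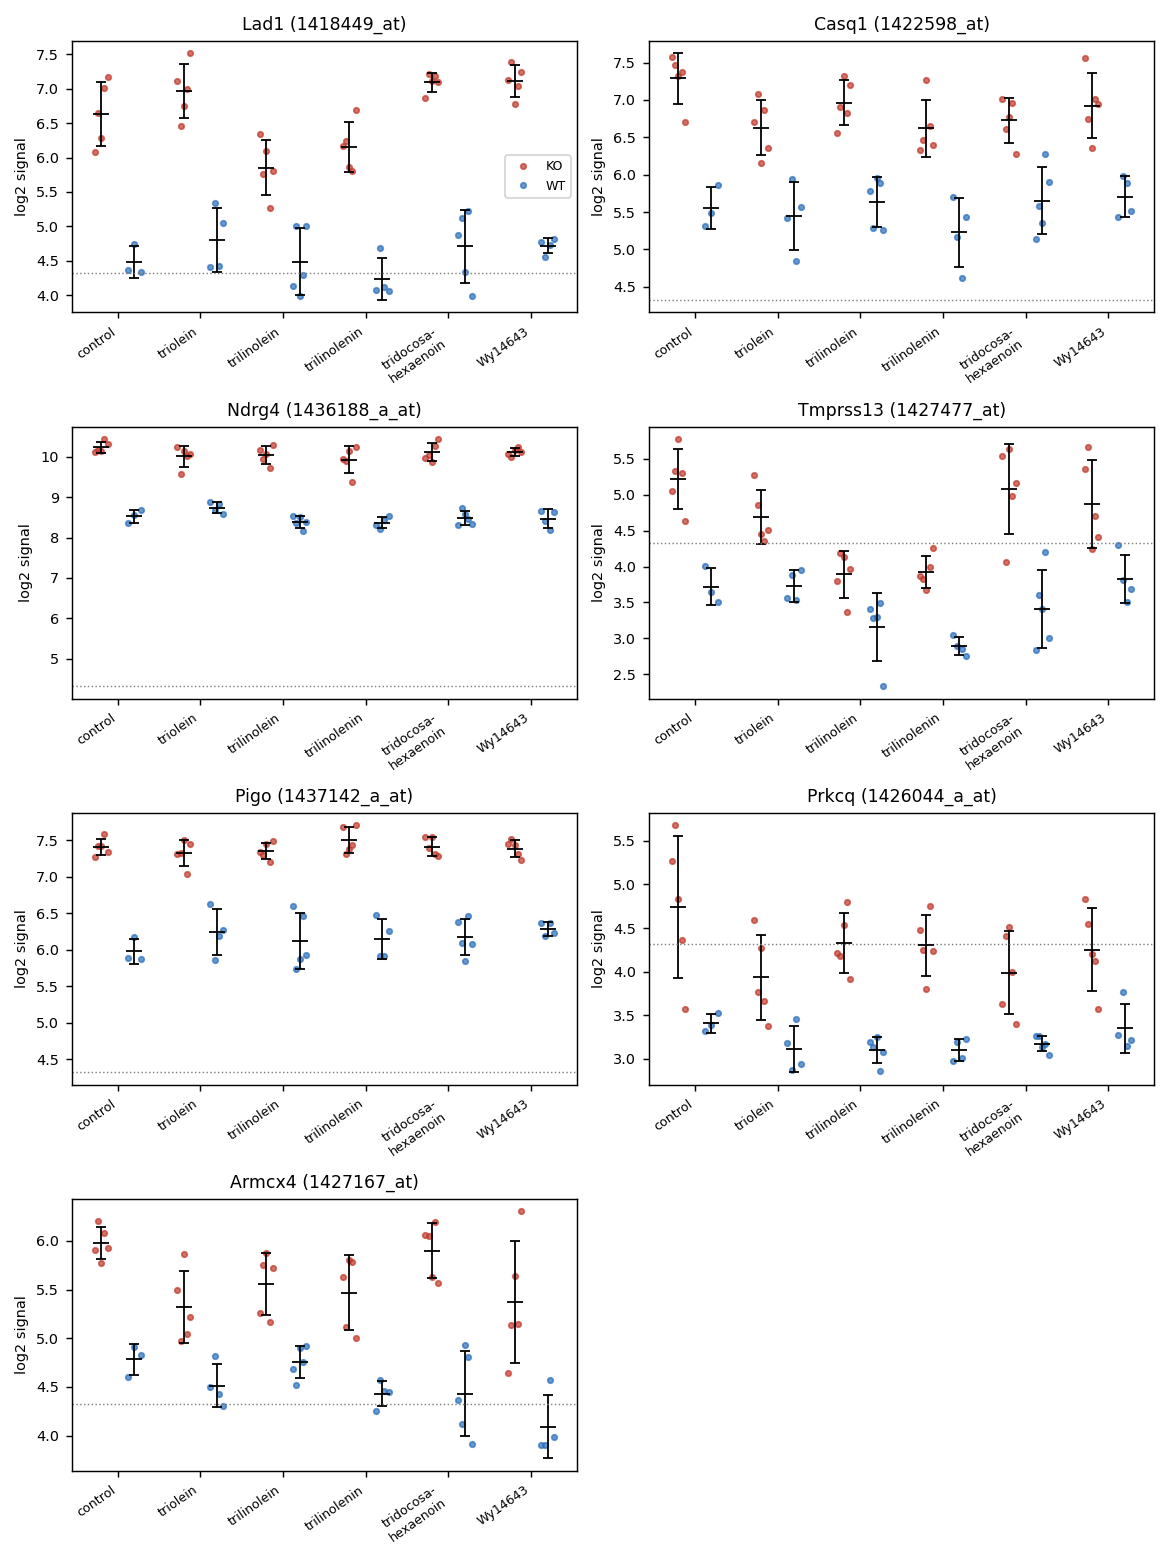
Log2 signal (y axis) of the brightest probe set of each gene in every heart, by gavage (x axis), with KO hearts in red left of WT hearts in blue. Bars are means ± SD, the dotted line is the brightness minimum of 4.32, the axes do not start at 0, and each KO mean stands above the WT mean of the same gavage, without overlap of hearts for Lad1, Ndrg4, Pigo and Armcx4.

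The question for the remaining 47 hearts (25 KO and 22 WT) was whether the genotype difference was also present in hearts that had no part in choosing the genes. Averaged over the 5 gavages, 7 of the 8 probe sets other than those of Tmprss13 and Prkcq rose in KO hearts, and 1 Pigo probe set fell. Of all tested probe sets 19.7% were called higher and 16.1% lower in the same comparison, in which limma adjusted p-values under 0.05 count as calls. In the fit without the filter, which does not depend on where a gene was bright, 9 of the 10 probe sets were called higher, against 8.28% of 34945. In whole heart tissue, more cells of a type and more RNA per cell cannot be told apart. With each array left out in turn, the 8 calls of the filtered fit held.

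Ndrg4 and the brightest Pigo probe set separated the genotypes without overlap in these hearts. On both Ndrg4 probe sets and on 1 Pigo probe set every KO heart lay above every WT heart, which was so for 0.156% of tested probe sets. Within each gavage taken alone, the KO hearts lay above all WT hearts in all 5 gavages for 5 of the 10 probe sets: those 3, Lad1 and Armcx4. The corresponding share of all tested probe sets was 0.499%.

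Casq1 encodes calsequestrin 1, the calcium-binding protein of the sarcoplasmic reticulum of skeletal muscle, while the heart mainly uses its relative calsequestrin 2, encoded by Casq2. After triolein its log2 signal was 6.71, 7.08, 6.15, 6.86 and 6.35 in KO hearts, against 5.42, 5.94, 4.85 and 5.57 in WT hearts. After trilinolein it was 6.56, 6.91, 7.31, 6.82 and 7.20 in KO hearts, against 5.78, 5.28, 5.95, 5.88 and 5.27 in WT hearts. After trilinolenin it was 6.33, 6.47, 7.27, 6.65 and 6.39 in KO hearts, against 5.71, 5.16, 4.62 and 5.43 in WT hearts. In these gavages the lowest KO heart was above the highest WT heart. After tridocosahexaenoin it was 7.01, 6.61, 6.77, 6.95 and 6.27 in KO hearts, against 5.15, 5.58, 5.35, 6.27 and 5.91 in WT hearts, where the lowest KO and the highest WT heart met. After Wy14643 it was 7.56, 6.74, 6.36, 7.01 and 6.94 in KO hearts, against 5.43, 5.99, 5.89 and 5.51 in WT hearts. The mean difference over the 5 gavages was 1.24 ± 0.11 (SE, limma adjusted p = 1.19e-13), or 2.36-fold, and 23 of 25 KO hearts lay above every WT heart. It was called in each gavage, with differences of 1.18, 1.33, 1.39, 1.07 and 1.22 in the order triolein, trilinolein, trilinolenin, tridocosahexaenoin and Wy14643.

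The other genes of the calcium store did not share the size of the Casq1 difference. Of 17 tested genes of the list, 4 rose and 3 fell, with a median difference of -0.05, against 0.020 for all genes tested. Taken by their brightest probe sets, 22.1% of all genes tested were called higher and 15.6% lower. These shares and that median also apply beside each list below. Jph2, which holds the reticulum next to the surface membrane, rose by 0.17 ± 0.05, and Cacna1c, the pore of the L-type calcium channel, rose by 0.16 ± 0.04. Trdn, the triadin that anchors calsequestrin to the release channel, fell by 0.26 ± 0.03 on the log2 scale, and Srl, sarcalumenin of the reticulum lumen, fell by 0.16 ± 0.03. Casq2 differed by -0.06 ± 0.04 (limma adjusted p = 0.252).

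Because calsequestrin 1 is a skeletal muscle protein, markers of that tissue were read beside it. Of 22 such markers, 14 never exceeded the brightness minimum in any array, among them the fast myosins Myh1, Myh2 and Myh4, the fast actinin Actn3 and the fast troponin Tnnt3. Of the 8 tested, 5 rose and 2 fell (median 0.08). Mybpc2, a fast myosin-binding protein, rose by 0.70 ± 0.09, and Tnnt1, the slow troponin T, rose by 0.67 ± 0.05. Acta1, skeletal actin, fell by 1.88 ± 0.12 on the log2 scale, and Myl1, a fast myosin light chain, fell by 0.35 ± 0.09. The summed linear signal of the list was 17465 to 21147 in KO and 19979 to 23627 in WT hearts after the 5 gavages. The brightest genes in it were Eno3 (median log2 signal 12.85 in KO and 12.75 in WT hearts) and Ckm (12.51 and 12.49), while Acta1 had 9.99 and 11.76. The sum weighs such bright genes most and is not read as an amount of skeletal muscle. The part of these markers in the Casq1 difference was not tested.

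Ndrg4, a cytoplasmic protein of the N-myc downstream-regulated family that is made mainly in brain and heart, was bright in every heart. On the brighter of its probe sets, 1436188_a_at, the log2 signal after triolein was 10.25, 9.57, 10.13, 10.02 and 10.07 in KO hearts, against 8.87, 8.68, 8.84 and 8.57 in WT hearts. After Wy14643 it was 10.07, 10.00, 10.17, 10.25 and 10.13 in KO hearts, against 8.66, 8.41, 8.18 and 8.64 in WT hearts. Over all 5 gavages it ranged from 9.38 to 10.43 (median 10.07) in KO hearts and from 8.17 to 8.87 (median 8.49) in WT hearts. The lowest KO heart lay well above the highest WT heart. The difference was 1.55 ± 0.06 (SE, limma adjusted p = 3.1e-27), or 2.93-fold. The other probe set, 1426615_s_at, gave 1.41 ± 0.05 (adjusted p = 5e-27), and both were called in each of the 5 gavages, with differences of 1.23 to 1.65.
The relatives of Ndrg4 moved little. Of Ndrg1, Ndrg2 and Ndrg3, 0 rose and 1 fell, namely Ndrg2 by 0.07 ± 0.02 on the log2 scale, and the median of the 3 was -0.04.

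Pigo encodes a subunit of the enzyme that adds an ethanolamine phosphate to glycosylphosphatidylinositol anchors, the bridge by which such anchors hold proteins at the cell surface. Its 3 probe sets gave different answers. On the brightest, 1437142_a_at, the log2 signal after trilinolenin was 7.68, 7.32, 7.38, 7.44 and 7.70 in KO hearts, against 6.48, 5.92, 5.92 and 6.26 in WT hearts. After Wy14643 it was 7.45, 7.51, 7.44, 7.31 and 7.22 in KO hearts, against 6.36, 6.19, 6.37 and 6.22 in WT hearts. Over the 5 gavages the KO hearts lay at 7.04 to 7.70 and the WT hearts at 5.74 to 6.63, apart from each other by a wide gap, with a difference of 1.20 ± 0.06 (limma adjusted p = 4.21e-22).
On 1438155_x_at the hearts overlapped. KO hearts lay at 5.42 to 6.13 and WT hearts at 4.87 to 6.14, with a difference of 0.36 ± 0.07 (limma adjusted p = 2.95e-05), and the suffix of the probe set marks probes that can also match other transcripts. On 1415992_at KO hearts lay at 3.71 to 4.64 and WT hearts at 4.07 to 4.91, around the brightness minimum, and the difference was -0.26 ± 0.06 (limma adjusted p = 0.00118). On this probe set 7 of 25 KO hearts lay below every WT heart and 0 above. The Pigo probe sets therefore disagreed in size and in direction, and which transcripts each of them reads was not tested. Their deviations from the group means over the 55 arrays had Pearson r between -0.17 and 0.10, whereas the Ndrg4 probe sets had r = 0.83. These deviations share arrays and normalisation.

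**Figure D2:**
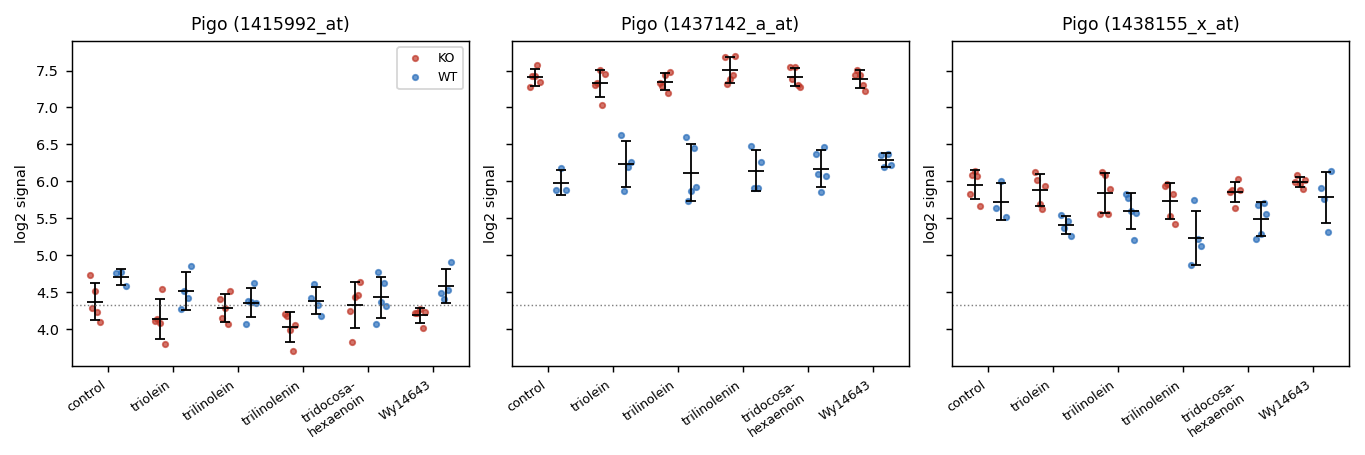
Log2 signal (y axis) of the 3 Pigo probe sets in every heart, by gavage (x axis), with KO hearts in red left of WT hearts in blue. Bars are means ± SD and the dotted line is the brightness minimum of 4.32: the genotypes stand apart on 1437142_a_at (1.20), overlap on 1438155_x_at (0.36), and lie in the opposite order on 1415992_at (-0.26).

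Other genes of anchor synthesis showed no common shift. Of 13 tested genes of the list 1 rose and 1 fell, with a median of -0.04. Pigp, a subunit of the first enzyme of the pathway, rose by 0.09 ± 0.03, and Pigu, a subunit of the transamidase that attaches anchors to proteins, fell by 0.23 ± 0.04 on the log2 scale.

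Lad1 encodes ladinin 1, a protein of the anchoring filaments beneath epithelia, and had the widest genotype difference of the 7 genes, 2.04 ± 0.11 over the 5 gavages (SE, limma adjusted p = 1.49e-21), or 4.13-fold. After triolein its log2 signal was 7.10, 6.46, 6.75, 6.99 and 7.52 in KO hearts, against 4.41, 5.34, 4.42 and 5.05 in WT hearts. After trilinolein it was 6.34, 5.77, 6.09, 5.27 and 5.80 in KO hearts, against 4.13, 5.01, 3.99, 4.29 and 5.00 in WT hearts. After trilinolenin it was 6.17, 6.24, 5.86, 5.80 and 6.69 in KO hearts, against 4.07, 4.69, 4.11 and 4.06 in WT hearts. Most KO hearts stood lower after trilinolein and trilinolenin than after triolein, and the genotypes did not overlap in any of the 3. After tridocosahexaenoin it was 6.87, 7.21, 7.11, 7.18 and 7.10 in KO hearts, against 4.87, 5.12, 4.34, 5.22 and 3.99 in WT hearts. After Wy14643 it was 7.12, 7.39, 6.78, 7.04 and 7.24 in KO hearts, against 4.78, 4.56, 4.73 and 4.82 in WT hearts. The KO hearts were tightly grouped after these gavages and 24 of 25 KO hearts in all lay above every WT heart. The WT mean after trilinolenin, 4.23, lay under the brightness minimum, so the size of the difference there is not exact. After trilinolein 2 of the 5 WT hearts exceeded that minimum.

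Other genes of basement membrane anchoring were read from a list. Of 6 tested, 4 rose and 0 fell (median 0.16), where 22.1% of all genes tested were called higher and 15.6% lower. Lama5, a laminin chain, rose by 0.59 ± 0.07, and Itga6, a laminin receptor, by 0.32 ± 0.07. Lamb3, another laminin chain, rose by 0.24 ± 0.09, and Dst, which links the receptor complex to the cytoskeleton, by 0.08 ± 0.02. Of 12 epithelial and mesothelial markers, 10 never exceeded the minimum in any array and 1 was tested, the mesothelial transcription factor Wt1, which fell by 0.29 ± 0.10 on the log2 scale (limma adjusted p = 0.0209). Their summed linear signal was 66 to 94 in KO and 62 to 90 in WT hearts, where a single gene at the minimum would contribute 20. The part of such cells in the Lad1 difference was not tested.

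Tmprss13 encodes a serine protease fixed in the surface membrane of epithelial cells. After tridocosahexaenoin its log2 signal was 5.54, 4.06, 5.64, 4.99 and 5.15 in KO hearts, against 2.84, 3.60, 3.41, 4.21 and 3.01 in WT hearts. After trilinolein it was 3.80, 4.19, 4.13, 3.37 and 3.96 in KO hearts, against 3.41, 3.28, 3.30, 3.49 and 2.34 in WT hearts. In both gavages 1 KO heart fell within the WT range. Over the 5 gavages the difference was 1.09 ± 0.12 (SE, limma adjusted p = 2.56e-10 without the filter), and 13 of 25 KO hearts lay above every WT heart. All WT means and the KO means after trilinolein and trilinolenin lay under the brightness minimum, so these sizes are not exact. The difference after trilinolein, 0.73 ± 0.26, did not pass the test (limma adjusted p = 0.128 without the filter and 0.0692 with it), while an exact two-sided permutation test over the 10 hearts gave an unadjusted p of 0.0238. In the filtered fit it was called without KO trilinolein heart 4 (0.86, limma adjusted p = 0.0407), without KO tridocosahexaenoin heart 2 (0.73, adjusted p = 0.0449) and with array weights (0.78, adjusted p = 0.0303). Tmprss13 passed that filter only through KO hearts, so these calls add no support. Among other membrane proteases of the type and their inhibitors 2 genes were bright enough to be tested, with Spint2, an inhibitor, higher by 0.12 ± 0.03 and Corin, the protease that activates natriuretic peptide in heart muscle, differing by -0.16 ± 0.03, both past the test.

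Prkcq encodes protein kinase C theta, best known from T cell receptor signalling and from skeletal muscle. After trilinolein its log2 signal was 4.21, 4.18, 4.54, 4.79 and 3.92 in KO hearts, against 3.19, 3.14, 3.24, 2.87 and 3.07 in WT hearts. After triolein it was 4.59, 3.77, 4.27, 3.67 and 3.37 in KO hearts, against 3.18, 2.87, 3.45 and 2.94 in WT hearts. The genotypes stood apart after trilinolein, and 1 KO heart fell within the WT range after triolein. Over the 5 gavages the difference was 0.99 ± 0.11 (SE, limma adjusted p = 1.02e-09 without the filter), with 20 of 25 KO hearts above every WT heart. All 5 of these WT means, and 4 of the 5 KO means, lay under the brightness minimum, so the size is not exact.
Of the T cell markers, 0 of the 10 on the array exceeded the minimum in any heart, and their summed linear signal was 51 to 61 in KO and 52 to 60 in WT hearts. The part of such cells in the Prkcq difference was not tested. Among 10 tested kinases of the protein kinase C family and its relatives 4 rose and 1 fell (median -0.01). Prkcd, the delta isoform, rose by 0.50 ± 0.05, Prkd1, a kinase that protein kinase C activates, by 0.25 ± 0.08, and Prkca, the alpha isoform abundant in heart muscle, by 0.13 ± 0.05. Pkn3, a related kinase, fell by 0.13 ± 0.05 on the log2 scale.

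Armcx4 is an X-linked gene of the armadillo-repeat family, several of whose members sit on mitochondria. After tridocosahexaenoin its log2 signal was 6.06, 6.05, 5.63, 6.19 and 5.57 in KO hearts, against 4.37, 4.12, 4.93, 4.81 and 3.91 in WT hearts. After Wy14643 it was 4.65, 5.14, 5.64, 5.15 and 6.30 in KO hearts, against 3.90, 3.91, 4.57 and 3.98 in WT hearts. The KO hearts spread most after Wy14643, and still lay above the WT hearts. Over the 5 gavages the difference was 1.08 ± 0.10 (SE, limma adjusted p = 5.36e-13), with 24 of 25 KO hearts above every WT heart. The WT mean after Wy14643, 4.09, lay under the brightness minimum.
Of 5 tested genes of the family 1 rose and 3 fell (median -0.18): Armcx3, which lies near Armcx4 on the X chromosome and helps to move mitochondria in nerve cells, rose by 0.32 ± 0.07, whereas Bhlhb9 fell by 0.60 ± 0.07, Gprasp1, a sorting protein for receptors, by 0.37 ± 0.06 and Armcx2 by 0.18 ± 0.07 on the log2 scale. Of 12 neuron and Schwann cell markers, 8 never exceeded the minimum, and of the 2 tested Mbp, a myelin protein, rose by 0.34 ± 0.11.

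**Figure D3:**
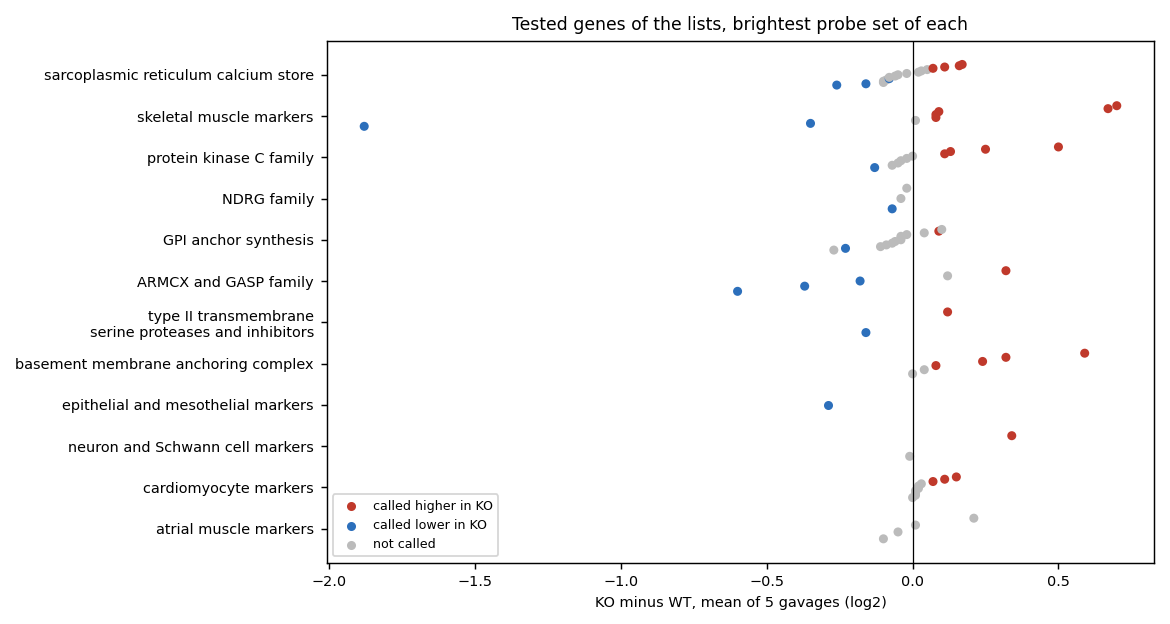
Difference of KO minus WT hearts, averaged over 5 gavages (x axis, log2), for each tested gene of the lists read beside the 7 genes (y axis, 1 row a list), with genes called higher in red, called lower in blue and not called in grey. Differences lie between -1.88 (Acta1) and 0.70 (Mybpc2), and the lists other than basement membrane anchors and cardiomyocyte markers that had several calls held calls in both directions.

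The genotype difference was then followed gavage by gavage. Of the 8 probe sets other than those of Tmprss13 and Prkcq, 7 were called after triolein, 6 after trilinolein, 7 after trilinolenin, 6 after tridocosahexaenoin and 6 after Wy14643, each of them higher in KO hearts. Of all tested probe sets 3.68%, 4.42%, 4.18%, 4.57% and 3.57% were called higher in these comparisons, in the same order. Without the filter 7, 7, 8, 7 and 8 of all 10 probe sets were called, against 1.09%, 1.43%, 1.26%, 1.45% and 1.15% of 34945 called higher. The dimmest Pigo probe set, 1415992_at, was called in no single gavage (differences of -0.39 to -0.07), except after triolein when KO heart 4 was left out (-0.48, limma adjusted p = 0.0402).
Some calls in single gavages depended on the setting or on 1 heart. Without the filter Prkcq was not called after triolein (0.82, limma adjusted p = 0.081) or tridocosahexaenoin (0.81, adjusted p = 0.0565), and was called after the other gavages. Tmprss13 was called without the filter in each gavage but trilinolein. With the compared groups alone, Prkcq was not called after triolein (adjusted p = 0.0715), nor Tmprss13 after Wy14643 (1.05, adjusted p = 0.0566). Values with a heart left out are from the filtered fit. There the Prkcq call after triolein was lost without KO heart 1 or 3 or WT heart 1, 2 or 4 (differences of 0.66 to 0.85, limma adjusted p of 0.0675 to 0.146). After tridocosahexaenoin it was lost without KO heart 2, 3 or 4 or WT heart 3 or 5 (0.68 to 0.81, adjusted p of 0.0512 to 0.105), and after Wy14643 without KO heart 1 or 2 or WT heart 1, 3 or 4 (0.76 to 0.88, adjusted p of 0.0592 to 0.0799). The Tmprss13 call was lost after triolein without KO heart 1 or WT heart 1 or 3 (0.81 to 0.90, adjusted p of 0.0598 to 0.0774) and after Wy14643 without KO heart 2 (0.85, adjusted p = 0.0509). The Armcx4 call after triolein was lost without KO heart 3 (0.67, adjusted p = 0.0656) or WT heart 4 (0.74, adjusted p = 0.0583). Probe set 1438155_x_at of Pigo lost its call after triolein (adjusted p = 0.0486 with all arrays) without any 1 of 29 arrays, with differences of 0.41 to 0.52, with no filter (adjusted p = 0.0954), with array weights (0.0683) and without the control arrays (0.0549). After trilinolenin it was lost with no filter (0.50, adjusted p = 0.0638), with the compared groups alone (0.155) and without KO heart 1, 2 or 4 or WT heart 1, 3 or 4, with differences of 0.37 to 0.49. Exact two-sided permutation tests within a gavage, unadjusted, gave p = 0.0635 for this probe set after trilinolenin and 0.0238 after tridocosahexaenoin, and for 1415992_at p = 0.0476 after trilinolenin and 0.0159 after Wy14643. The calls of Lad1, Casq1, Ndrg4 and the brightest Pigo probe set held in each gavage whichever array was left out.

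**Figure D4:**
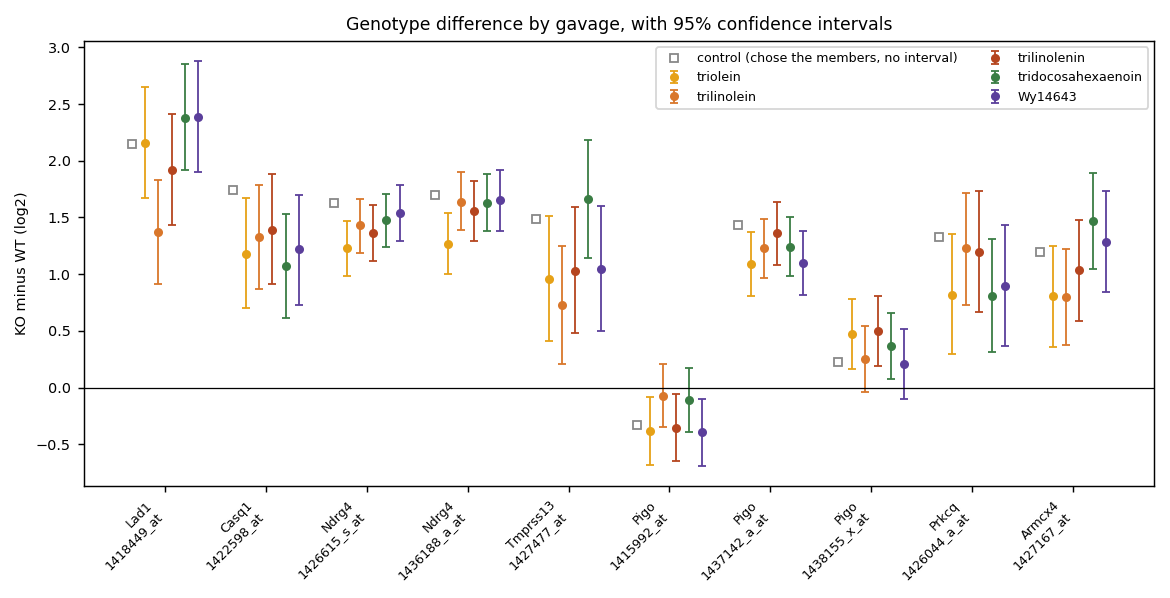
KO minus WT difference (y axis, log2) of each of the 10 probe sets (x axis) in each gavage, with 95% confidence intervals of the limma fit. Open grey squares are the control hearts that chose the genes and carry no interval, and the intervals of all but 1415992_at and 1438155_x_at of Pigo lie above 0 in the 5 other gavages, with Lad1 between 1.37 and 2.39.

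No probe set of the 7 genes showed a genotype difference that varied among the 5 gavages by the test of that variation itself. In the limma F test with 4 contrasts, 0 of 10 were called without the filter, as were 0 of all 34945. In the filtered fit 0 of 10 were called (adjusted p of 0.725 or more), against 0.0149% of all tested probe sets. Only Lad1 had an unadjusted limma p under 0.05 (F = 3.35). Its difference was 1.37 ± 0.23 after trilinolein and 2.39 ± 0.24 after Wy14643.

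Within one genotype, the gavages differed for 2 of the 7 genes. In KO hearts Lad1 was called (limma F = 13.2, adjusted p = 0.000251), where 2.57% of all tested probe sets were. Tmprss13 was called without the filter (F = 9.38, limma adjusted p = 0.00601), where 2 of 10 probe sets and 0.738% of 34945 were. Lad1 averaged 6.96 ± 0.40 after triolein, 5.85 ± 0.40 after trilinolein, 6.15 ± 0.36 after trilinolenin, 7.09 ± 0.14 after tridocosahexaenoin and 7.11 ± 0.23 after Wy14643 (SD, n = 5 KO hearts each). Tmprss13 averaged 4.69 ± 0.38, 3.89 ± 0.33, 3.92 ± 0.22, 5.07 ± 0.63 and 4.87 ± 0.61 in the same order. Both genes were thus lowest after the triglycerides of linoleic and linolenic acid. The Lad1 call held in the filtered fit when each array was left out in turn. The Tmprss13 call held there too, but Tmprss13 passed that filter only through KO hearts, so this adds no support for it. The fit without the filter was not repeated with arrays left out. For comparison the KO control hearts, which share in the choice of the genes, averaged 6.64 ± 0.47 for Lad1 and 5.22 ± 0.42 for Tmprss13.
In WT hearts 0 of 10 probe sets were called without the filter. In the filtered fit 0 of 10 were called as well, against 4.36% of all tested. Tmprss13 had the lowest p (F = 3.72, unadjusted p = 0.0105, limma adjusted p = 0.133, or 0.233 without the filter), with WT means of 3.73 ± 0.22, 3.16 ± 0.47, 2.89 ± 0.12, 3.41 ± 0.54 and 3.83 ± 0.34 in the order given. Pigo probe set 1438155_x_at also had an unadjusted p under 0.05 and was called without WT trilinolenin heart 2 (F = 5.20, adjusted p = 0.0425). Lad1 in WT hearts had F = 1.68 (adjusted p = 0.542).

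The agonist comparison asked whether the genes differed between Wy14643 and the triglycerides. Fatty acids also activate PPARα, so a response shared by the agonist and the triglycerides would not show in it. Against the mean of the 4 triglycerides, 0 of 10 probe sets were called in either genotype without the filter. Of all 34945, 15 were called in KO and 266 in WT hearts. The filtered fit also called 0 of 10 in KO hearts, where 0.73% of all tested were called, and 0 of 10 in WT hearts, where 3.1% were. At an unadjusted p under 0.05 the limma counts were 2 in KO hearts (Lad1, 0.60 ± 0.18, and Tmprss13, 0.48 ± 0.20) and 3 in WT hearts (Armcx4, -0.44 ± 0.18, Tmprss13, 0.53 ± 0.23, and Pigo probe set 1438155_x_at, 0.35 ± 0.13). The last of these was called without WT Wy14643 heart 3 (0.51, adjusted p = 0.0369). The 95% interval of the WT difference was -0.24 to 0.57 for Lad1, -0.18 to 0.62 for Casq1, -0.25 to 0.20 for the brighter Ndrg4 probe set and -0.11 to 0.35 for the brightest Pigo probe set. In WT hearts Ppara itself was called higher after Wy14643 than after the triglycerides on 2 of its 3 probe sets, by 0.35 ± 0.10 and 0.47 ± 0.12. Against WT control hearts, with no test, Wy14643 differed on these probe sets by only 0.17 ± 0.14 and 0.19 ± 0.17. Triolein differed from control by -0.12 and -0.33, trilinolein by -0.38 and -0.55, trilinolenin by -0.44 and -0.30, and tridocosahexaenoin by 0.19 and 0.09.

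Each gavage can also be set against the control hearts, which took part in choosing the genes, so these differences carry no test. In KO hearts Casq1 differed from KO control hearts by -0.67 to -0.33, Prkcq by -0.81 to -0.41 and Armcx4 by -0.66 to -0.08. Tmprss13 differed by -1.32 ± 0.26 after trilinolein and -1.29 ± 0.26 after trilinolenin, while Lad1 differed by 0.33, -0.79, -0.48, 0.46 and 0.48 in the order triolein, trilinolein, trilinolenin, tridocosahexaenoin and Wy14643 (SE 0.23 each). In WT hearts Tmprss13 differed from control by -0.56 ± 0.30 after trilinolein and -0.83 ± 0.31 after trilinolenin, and Lad1 by 0.00 ± 0.27 and -0.25 ± 0.28. After Wy14643 the differences from WT control hearts lay between -0.69 ± 0.25 for Armcx4 and 0.31 ± 0.16 for Pigo probe set 1437142_a_at.

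The 7 genes were also compared with each other within groups. Over the 55 deviations from the 12 group means, pairs of different genes had Pearson r between -0.30 and 0.34, so hearts that were high for 1 of them were not generally high for another. Over the 12 group means r was higher for pairs without Pigo probe set 1415992_at, for example 0.97 for Casq1 and Prkcq and 0.91 for Lad1 and Casq1. With the other genes that probe set had r between -0.72 and -0.34. However, 6 of those 12 points are KO groups, and any genes that differ by genotype line up there. The genes most like each of them over the 12 means were Acsl6, an acyl-CoA synthetase, for Ndrg4 (r = 0.994) and for Pigo (r = 0.991), Ttll1 for Lad1 (r = 0.983), Gga2 for Casq1 (r = 0.979), Ndufb9 for Tmprss13 (r = 0.987), Ddah1 for Prkcq (r = 0.973) and Bex3 for Armcx4 (r = 0.963). Their own KO minus WT differences over the 5 gavages were between 0.05 for Ndufb9 and 1.30 for Acsl6. Next for Pigo came a Clta probe set (r = 0.988) and a Mtm1 probe set (r = 0.988), with KO minus WT differences of 2.42 and 3.16 over the 5 gavages. Over the 55 deviations the closest were Rab1a for Tmprss13 (r = 0.710) and Creb1 for Armcx4 (r = 0.684), followed for Armcx4 by Armcx3 (r = 0.658). All these points share arrays and normalisation.

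The genes nearest to the 7 on the chromosome were read for differences between the mice. Of the 28 nearest tested genes, 2 on each side of each gene in the RefSeq table, 2 rose, 4 fell and 22 were not called. They lay 0 to 1504 kb away, so some were not close neighbours. Of all genes tested, 22.1% were called higher and 15.6% lower. Each neighbour was read by its brightest probe set alone, and genes further away were not read. These values therefore do not show whether wider neighbourhoods differed. The rises were Fam214b near Pigo (0.31 ± 0.06) and Armcx3. The falls were Camsap2, 435 kb from Lad1 (-0.16 ± 0.04), Bace1, 491 kb from Tmprss13 (-0.18 ± 0.06), Vcp beside Pigo (-0.15 ± 0.03) and Armcx2. Tnnt2, the cardiac troponin T gene and the nearest tested gene on 1 side of Lad1, differed by 0.02 ± 0.01 (limma adjusted p = 0.274), and Setd6, nearest on 1 side of Ndrg4, by 0.05 ± 0.06 (adjusted p = 0.585).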

How the data were processed

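The values were log2 signals as deposited in the series' value table, made with GCRMA 2.2.0 per the submitters' processing notes; the sources used here name no other step before deposit. Of 45101 probe sets, 34958 named 1 gene in the platform annotation, 932 several and 9211 none, and 13 control probe sets were left out. Names (34741 Entrez identifiers matched, 0 symbols changed), neighbours and promoters came from RefSeq tables of build GRCm38.p6. Probe sets above 20 in at least 3 of 55 arrays (13429, or 38.4%) entered one limma 3.58.1 fit (R 4.3.3) with a mean for each of the 12 groups. Contrasts and moderated F tests were adjusted by Benjamini-Hochberg over all 13429, with calls at an adjusted p under 0.05. A gene of a list was read by its brightest probe set, and the text names up to 4 called genes of a list, by size of difference. Per gavage, exact two-sided permutation tests could not go below p = 0.0159 (5 against 4 hearts) or 0.00794 (5 against 5). The genes and lists were chosen with earlier results of these data known. Alternatives were no filter, a minimum of 100, the brightest probe set per gene, quantile normalisation again, a variance prior fitted robustly with a trend, array weights, no control arrays, the compared groups alone, a replicate block, and each array left out. On simulated data with 200 changed probe sets of 13429, the mean over 5 gavages recovered 98.2% of log2 changes of 0.5, with 3.88% false calls. Single gavages recovered 68.8% to 73.8% of such changes, with 4.01% to 5.71% false calls. Replicate numbers did not pair the hearts: deviations of 281 same-numbered pairs had a median r of 0.00503 and a lowest of -0.29. The number of arrays limits the precision.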

Additional observations from a re-analysis of the deposited data

Results flagged for a closer look

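Of 110 sets of values (a probe set in a group of 4 or 5 hearts), 5 held 1 heart whose gap to the nearest of the others was a larger part of the whole range than Dixon's 95% limit allows; chance flags about 1 in 20 such sets. Lad1 had a log2 signal of 4.69 in WT trilinolenin heart 2, above the 4.06 to 4.11 of the other hearts of the group. Casq1 had 6.71 in KO control heart 5, below the 7.32 to 7.57 of the others. Tmprss13 had 2.34 in WT trilinolein heart 5, below 3.28 to 3.49 in the others. Pigo probe set 1415992_at had 4.01 in KO Wy14643 heart 4, below 4.22 to 4.27. Armcx4 had 4.57 in WT Wy14643 heart 3, above 3.90 to 3.98. Each of the 5 came from a different group.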

How the results depend on the processing

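In the mean over the 5 gavages, the calls of all 10 probe sets of the 7 genes held under every alternative that gave a value, one array out included. Tmprss13 and Prkcq passed the filter only through KO hearts, so for both genes the alternatives that kept it add no support. A minimum of 100 left 5 of these probe sets to test, and all 5 were called in the mean and after triolein, trilinolenin, tridocosahexaenoin and Wy14643. Of the 5, Lad1, Casq1 and Pigo 1437142_a_at exceeded 100 in KO hearts only. Their highest log2 signals in WT hearts after the 5 gavages were 5.34, 6.27 and 6.63. They passed only through the genotype in which they are high, so their calls at that minimum add no support. For the KO hearts' gavage test a minimum of 100 left 1 called. Over all tested probe sets, calls in the mean of 5 were 4799, against 3174 with that minimum and 3156 with the brightest probe set per gene. That last setting gave 653 calls after triolein (1004 with all probe sets). With the compared groups alone there were 653 calls after trilinolenin (1154 in the full fit) and 456 after tridocosahexaenoin (1122), 377 in the WT gavage test (586), 95 in the KO gavage test (345) and 12 in the KO Wy14643 comparison (98). The variation of the genotype difference had 2 calls, 1 with the brightest probe sets, 0 with no filter, quantile normalisation, array weights or no control arrays, and 0 to 3 with one array out. Wy14643 against triglycerides had 416 calls in WT hearts, 266 with no filter and 217 to 466 with one array out. In KO hearts the 98 calls became 15 with no filter, 183 with array weights, 49 without control arrays and 0 to 192 with one array out. With one array out, 0 to 1 of the 10 probe sets were called in the WT gavage test and in the WT Wy14643 comparison. Signs turned only for differences near 0 that were not called. For tridocosahexaenoin the Pigo 1415992_at difference was -0.198 to 0.0151 with one array out. For Wy14643 in WT hearts the Ndrg4 ranges were -0.204 to 0.00496 and -0.0857 to 0.0736. For Wy14643 in KO hearts the Pigo 1415992_at range was -0.0346 to 0.0408 (0.0169 with quantile normalisation), that of Prkcq -0.0303 to 0.286 and that of Pigo 1437142_a_at -0.0447 to 0.0271. The cause was not tested for any of these. With the replicate number as a block, 4694 probe sets were called in the mean of 5, all 10 of the 7 genes among them. The block kept the filter, so this adds no support for Tmprss13 and Prkcq. In no comparison did the block change the count of calls among the 7 genes. Only 10 of 55 arrays correlated best with their own number, so the numbers are not read as pairs. Group means under 4.32 limit the sizes for Tmprss13 and Prkcq, for Lad1 after trilinolenin, for Armcx4 after Wy14643 and for Pigo probe set 1415992_at.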
